A study of Mus musculus with 8 samples.

Results

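Aminoacyl-tRNA synthetases are the enzymes that load each amino acid onto its tRNA before protein synthesis. The genes described here are 20 cytosolic synthetase genes, 16 mitochondrial synthetase genes, whose symbols end in 2, and the scaffold gene Aimp1. These 37 genes were chosen by name, and all 37 were found among the 16308 genes of the expression table, 36 under the listed symbol and Mars1 under its older symbol Mars through the RefSeq synonyms. All 37 passed the filter on low counts, which left 11989 genes tested.

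Gene expression was measured by sequencing ribosome-depleted RNA of CD4+ T cells from C57BL/6 mice. Both groups with gene counts were wild type by their column names, with 2 libraries of untreated naive cells and 2 libraries of Th17 cells. The Th17 cells had been cultured for 72 h on plates coated with hamster IgG, with 0.25 µg/mL anti-CD3ε, 1 µg/mL anti-CD28, 0.1 ng/mL TGF-β and 20 ng/mL IL-6, although the growth protocol gives TGF-β as a range that starts at this dose. The naive group was not cultured, so culture, T cell receptor stimulation and cytokines all differed between the groups together. A further 2 wild-type and 2 DDX5-deficient Th17 libraries, from cells given the same agents for 72 h, had only tables of RNA editing. How DDX5 was removed is not given in the labels. The labels call the 2 replicates of a condition independent and biological, without saying how many mice each came from.

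Amino acids are loaded onto tRNA in the cytosol and, separately, in the mitochondrion, where a small set of respiratory chain subunits is made. Most amino acids are served by a pair of nuclear genes, one for each compartment. Gars and Kars encode enzymes that work in both places, and Eprs encodes a single protein with both a glutamyl and a prolyl enzyme. Naive T cells make little protein, and activated T cells grow and divide, so charged tRNA is in demand during the change from one state to the other. Several cytosolic synthetase genes are known targets of ATF4, the transcription factor of the amino acid response, whose protein is made when uncharged tRNA activates the kinase GCN2.

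The 4 libraries held 11768994 to 26624436 reads assigned to genes. The Th17 libraries were tested against the naive ones with edgeR (quasi-likelihood, Benjamini-Hochberg adjustment over all tested genes), and a gene was called when this edgeR adjusted p was under 0.05. By that rule 34.3% of all tested genes were higher in Th17 cells and 30.7% were lower. With libraries scaled by total reads alone, 66.4% of the calls were higher against 52.8% of them with the TMM scaling used here, and the median of all genes shifted upward by 0.30 in log2. Among markers, the 6 Th17 genes summed to 0.563 to 0.796 CPM (counts of a gene relative to the TMM-scaled library size) in naive and 3570 to 3980 CPM in Th17 libraries. The 6 CD4 T cell markers summed to 4940 and 5640 CPM in naive and to 2450 and 2170 CPM in Th17 libraries, with 5 of 6 called lower. The 5 B cell markers summed to at most 2.96 CPM, the 7 myeloid and dendritic markers at most 8.38 CPM and the 4 erythroid markers at most 11.5 CPM, and the 6 CD8 and NK markers summed to 82.9 and 100 CPM in naive and 22.7 and 23.2 CPM in Th17 libraries. Most of that sum came from Prf1, at 52.8 and 59.6 CPM in naive and 4.68 and 5.61 CPM in Th17 libraries, and Cd8b1, at 20.9 and 27.4 CPM in naive and 14.7 and 13.3 CPM in Th17 libraries, while Cd8a reached at most 0.704 CPM. Their part in the results below was not tested. In such bulk samples a change in the number of cells of a type and a change in RNA per cell cannot be told apart.

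Most cytosolic synthetase genes were called higher in Th17 cells, and the mitochondrial ones were called lower or did not pass the test, with 1 exception. Of 20 cytosolic genes 16 were called higher and 0 lower, beside the 34.3% and 30.7% of all tested genes. Their median log2 fold change of Th17 over naive was 0.87, against 0.06 for all tested genes. Both Th17 libraries lay above both naive libraries for 17 of the 20 genes, a pattern shown by 44.1% of all tested genes. Of 16 mitochondrial genes 1 was called higher and 8 lower, with a median log2 fold change of -0.50. With total reads as the only scaling, 5 mitochondrial genes were called higher and 4 lower, at a median of -0.21, and 19 of 20 cytosolic genes higher. Both Th17 libraries lay below both naive ones for 10 of the 16, against 40.8% of all tested genes. Leaving out naive library 1 gave 10 cytosolic calls higher and 4 mitochondrial calls lower. Leaving out naive library 2 gave 11 and 5.

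**Figure D1:**
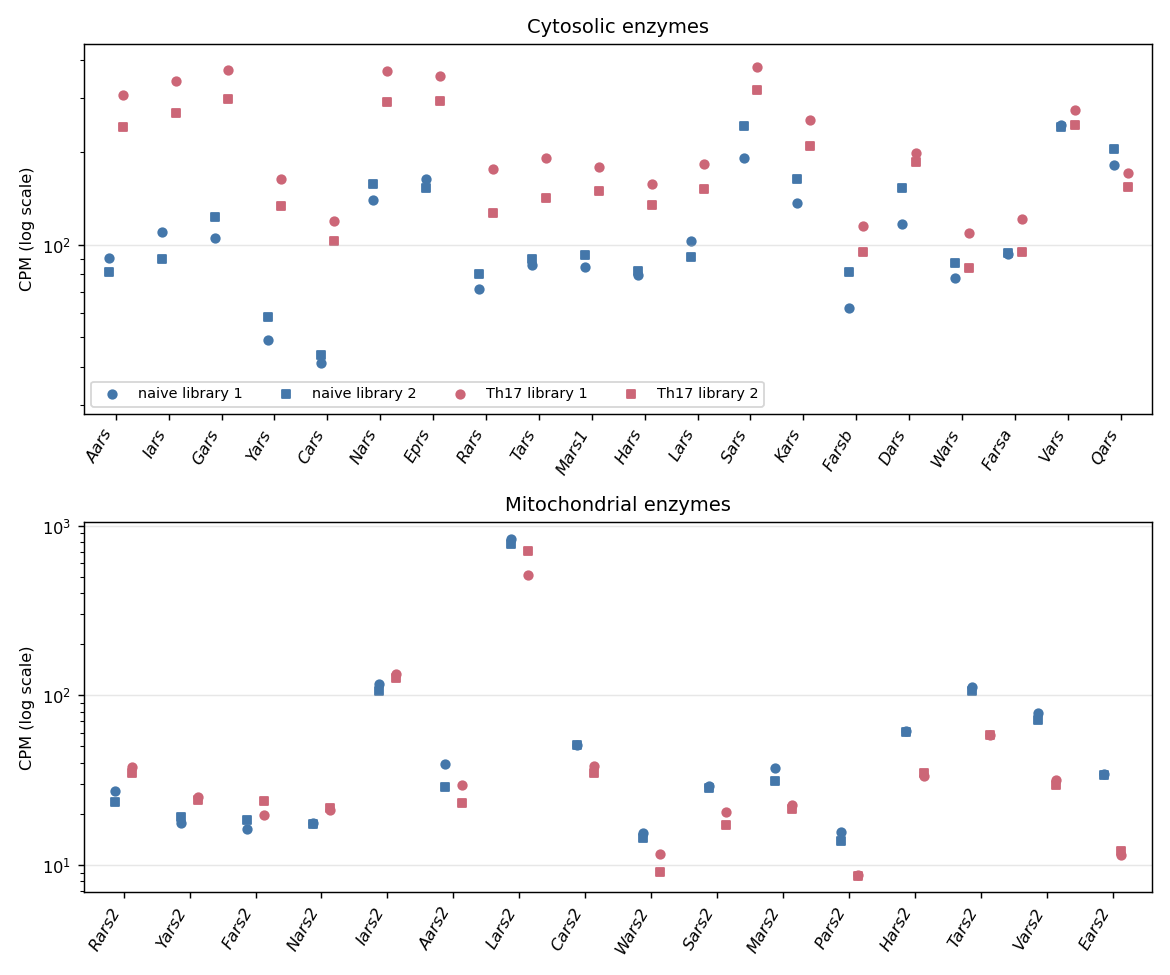
Level of each synthetase gene in the 2 naive and 2 Th17 libraries, in CPM on a log axis, with cytosolic enzymes above and mitochondrial enzymes below, each ordered by log2 fold change. Circles are library 1 and squares library 2. From Aars to Dars the Th17 points all sit above the naive points, and from Cars2 to Ears2 they all sit below.

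The largest cytosolic rises were those of Aars, Iars, Gars, Yars and Cars. Aars, the alanyl enzyme (mm10 chr8:111033144-111057664, GENCODE M21), lay at 90.6 and 81.4 CPM in the naive libraries and at 307 and 241 CPM in the Th17 libraries. The groups did not overlap, and the group means were 86.0 ± 6.49 and 274 ± 46.3 CPM (SD, n = 2). The log2 fold change was 1.67 (SE 0.18), at an edgeR adjusted p of 5.1e-05. Of its annotated exon bases 14.3% are shared with Exosc6 on the same strand. Iars (chr13:49682100-49734267), which charges isoleucine and is part of the multi-synthetase complex, stood at 110 and 89.6 CPM in naive and 341 and 269 CPM in Th17 cells. It rose by a log2 of 1.61 (SE 0.19) at an edgeR adjusted p of 9.4e-05. A processed pseudogene, Gm4849, shares 1656 bases with Iars transcripts at 96.0% identity, so its level is uncertain by the reads that could fall on either.

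Gars, the glycyl enzyme of both cytosol and mitochondria, had 105 and 123 CPM in naive and 369 and 297 CPM in Th17 libraries. Its log2 fold change was 1.55 (SE 0.18), with an edgeR adjusted p of 8.8e-05. Yars, for tyrosine, was low in both naive libraries at 49.0 and 58.1 CPM and high in both Th17 libraries at 164 and 134 CPM. That is a rise by a log2 of 1.48 (SE 0.17) with an edgeR adjusted p of 9.7e-05. Cars, for cysteine, had the lowest naive counts of the cytosolic genes, 775 and 622 reads, or 41.1 and 43.8 CPM, and reached 119 and 103 CPM in Th17 cells, a log2 fold change of 1.39 (SE 0.16), at an edgeR adjusted p of 8.3e-05. In each of these 5 genes Th17 library 1 was the highest of the 4 libraries.

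The next 5 genes rose 1.86 to 2.22 fold in their means and charge asparagine, glutamate and proline, arginine, threonine and methionine. Nars, for asparagine, lay at 140 and 157 CPM in naive and 367 and 292 CPM in Th17 cells, a log2 fold change of 1.15 (SE 0.18). Eprs went from 164 and 153 CPM to 353 and 294 CPM, by a log2 of 1.03 (SE 0.17). For Rars, the arginyl enzyme, the values were 71.4 and 79.9 CPM against 176 and 127 CPM, a log2 of 1.00 (SE 0.19). Tars, for threonine, rose from 85.6 and 89.4 CPM to 192 and 142 CPM, a log2 of 0.93 (SE 0.18). Mars1, whose product charges the methionine of both initiator and elongator tRNA, rose from 84.2 and 92.4 CPM to 179 and 149 CPM, by a log2 of 0.89 (SE 0.16). Both Th17 libraries lay above both naive libraries for all 5, a pattern shown by 44.1% of all tested genes. The edgeR adjusted p was 0.00047 for Nars, 0.00064 for Eprs, 0.0016 for Rars, 0.0018 for Tars and 0.0013 for Mars1. The calls of Rars and Tars were lost without either one of the naive libraries.

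The other 6 cytosolic calls were smaller, with log2 fold changes of 0.85 (SE 0.16) for Hars, 0.79 for Lars, 0.69 (SE 0.19) for Sars, 0.63 for Kars, 0.55 for Farsb and 0.51 for Dars. Hars, for histidine, rose from 79.6 and 81.7 CPM to 157 and 135 CPM, and Lars, for leucine, from 103 and 91.3 CPM to 183 and 152 CPM. Sars had 191 and 243 CPM in naive libraries and the highest Th17 mean of the cytosolic genes, 349 ± 43.9 CPM (SD, n = 2), from 380 and 318 CPM. Its product also puts serine on the selenocysteine tRNA. Kars, the lysyl enzyme of both compartments, had 137 and 163 CPM against 254 and 210 CPM. The beta subunit of the cytosolic phenylalanyl enzyme, Farsb, was measured at 62.3 and 81.3 CPM and at 115 and 94.5 CPM, and Dars, for aspartate, at 117 and 153 CPM and at 199 and 186 CPM. The edgeR adjusted p was 0.0013 for Hars, 0.0028 for Lars, 0.010 for Sars, 0.011 for Kars, 0.028 for Farsb and 0.029 for Dars. The calls of Farsb and Dars were lost without naive library 1, without Th17 library 1 and under either change of the low-count filter, and that of Farsb also without naive library 2. Leaving out 1 library also ended the calls of Kars (either naive library or Th17 library 1), Sars (naive library 1 or Th17 library 1) and Lars (naive library 2).

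The 4 cytosolic genes that were not called were Qars, Vars, Farsa and Wars, and with total reads as the only scaling Vars, Farsa and Wars were called higher. Qars, the glutaminyl enzyme, was the 1 cytosolic gene with a negative value, at 181 and 205 CPM in naive and 171 and 154 CPM in Th17 cells. Its log2 fold change was -0.25 (SE 0.16) with an edgeR adjusted p of 0.20, and with total reads as the only scaling it was 0.06. Vars, for valine, stood at 246 and 242 CPM in naive and 274 and 245 CPM in Th17 libraries, a log2 of 0.09 (SE 0.16, edgeR adjusted p 0.63). It had the highest naive mean of the cytosolic genes, 244 ± 2.49 CPM (SD, n = 2). Farsa, the alpha partner of Farsb in the same heteromeric enzyme, had 93.5 and 94.1 CPM against 121 and 94.7 CPM, a log2 of 0.20 (SE 0.17, edgeR adjusted p 0.31). Wars, the tryptophanyl enzyme, overlapped between groups, with 78.1 and 87.2 CPM in naive and 109 and 83.9 CPM in Th17 cells, a log2 of 0.23 (SE 0.18, edgeR adjusted p 0.28).

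Among mitochondrial enzymes the largest falls were those of Ears2, Vars2, Tars2, Hars2 and Pars2. Ears2, the glutamyl enzyme (chr7:122037213-122067263), which in mitochondria also charges the glutamine tRNA with glutamate, stood at 34.3 and 33.9 CPM in naive and 11.5 and 12.1 CPM in Th17 libraries. The means were 34.1 ± 0.328 and 11.8 ± 0.429 CPM (SD, n = 2). The log2 fold change was -1.53 (SE 0.17), at an edgeR adjusted p of 6.2e-05. Vars2, for valine (chr17:35655634-35667592), lay at 78.7 and 71.7 CPM in naive and at 31.8 and 29.6 CPM in Th17 cells, a log2 of -1.29 (SE 0.15) with an edgeR adjusted p of 9.3e-05. Replicates of both genes were close together and the groups far apart.

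Tars2, for threonine, had 111 and 106 CPM in naive and 58.6 and 58.0 CPM in Th17 libraries, a log2 fold change of -0.90 (SE 0.15), at an edgeR adjusted p of 0.00073. Hars2, for histidine, went from 61.3 and 60.7 CPM to 33.3 and 34.7 CPM, by a log2 of -0.84 (SE 0.14) with an edgeR adjusted p of 9.0e-04. Hars2 and Hars start next to each other on opposite strands and share 195 bases of annotated exon, yet they were called in opposite directions. Pars2, the mitochondrial prolyl enzyme, had the fewest Th17 reads of the mitochondrial genes, 252 and 114, and fell from 15.6 and 13.8 CPM to 8.74 and 8.64 CPM, a log2 of -0.76 (SE 0.22) with an edgeR adjusted p of 0.015. Its call was lost without either naive library and with total reads as the only scaling.

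Smaller falls were called for Mars2, Sars2 and Cars2. Mars2, which charges the single mitochondrial methionine tRNA, had 37.2 and 31.3 CPM in naive and 22.4 and 21.2 CPM in Th17 cells, a log2 of -0.65 (SE 0.16). The seryl gene Sars2 went from 29.3 and 28.2 CPM to 20.6 and 17.1 CPM, a log2 of -0.60 (SE 0.17), and the cysteinyl gene Cars2 from 50.9 and 50.6 CPM to 38.3 and 34.6 CPM, a log2 of -0.48 (SE 0.15). The edgeR adjusted p was 0.0072, 0.013 and 0.019 in that order. Both Th17 libraries lay below both naive libraries for all 3, a pattern shown by 40.8% of all tested genes. All 3 calls were lost with total reads as the only scaling and without naive library 1. Those of Sars2 and Cars2 were also lost without naive library 2 or Th17 library 2.

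Rars2, for arginine, was the 1 mitochondrial synthetase gene called higher. It had 27.2 and 23.4 CPM in naive and 37.8 and 34.7 CPM in Th17 libraries, a log2 fold change of 0.52 (SE 0.16), at an edgeR adjusted p of 0.019. This call was lost without either naive library, without Th17 library 1 and with no low-count filter. Of the 7 mitochondrial genes that were not called, Yars2 at 0.41, Fars2 at 0.33, Nars2 at 0.28 and Iars2 at 0.22 had positive log2 fold changes. In each of them both Th17 libraries lay above both naive ones, a pattern shown by 44.1% of all tested genes. Yars2, for tyrosine, stood nearest the threshold of these, at 17.7 and 19.2 CPM against 25.0 and 24.0 CPM (SE 0.17) with an edgeR adjusted p of 0.058, and it was called by DESeq2 and with DESeq2 size factors, upper quartile or total reads as the scaling. With total reads Fars2, Nars2 and Iars2 were also called higher, and Iars2 also by DESeq2. Fars2, for phenylalanine, had 16.3 and 18.3 CPM against 19.8 and 23.8 CPM (SE 0.19, edgeR adjusted p 0.15). Nars2, for asparagine, had 17.7 and 17.5 CPM against 21.1 and 21.7 CPM (SE 0.17, edgeR adjusted p 0.17). Iars2, for isoleucine, had 117 and 106 CPM against 134 and 127 CPM (SE 0.15, edgeR adjusted p 0.22), with 22.9% of its exon bases shared with the opposite-strand gene Rab3gap2.

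The remaining 3 mitochondrial genes, Aars2, Lars2 and Wars2, had negative log2 fold changes that did not pass. Aars2, for alanine, overlapped between groups at 39.5 and 28.9 CPM in naive and 29.6 and 23.0 CPM in Th17 cells, a log2 of -0.38 (SE 0.20, edgeR adjusted p 0.14). Wars2, for tryptophan, lay at 15.4 and 14.4 CPM against 11.6 and 9.02 CPM, a log2 of -0.53 (SE 0.23, edgeR adjusted p 0.065). Leaving out 1 library in turn, Aars2 ranged from -0.66 to -0.18 and Wars2 from -0.76 to -0.36. Whether Aars2 and Wars2 were called lower depended on the library left out. Lars2, for leucine, stood apart by its level. It had 9280 to 15692 reads per library, or 833 and 778 CPM in naive and 513 and 703 CPM in Th17 cells. Its log2 fold change was -0.41 (SE 0.20, edgeR adjusted p 0.11), and the 2 Th17 libraries differed by more than the naive libraries did. Whether reads from other sequences added to the level of Lars2, and so to the leucine ratio, was not tested.

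**Figure D2:**
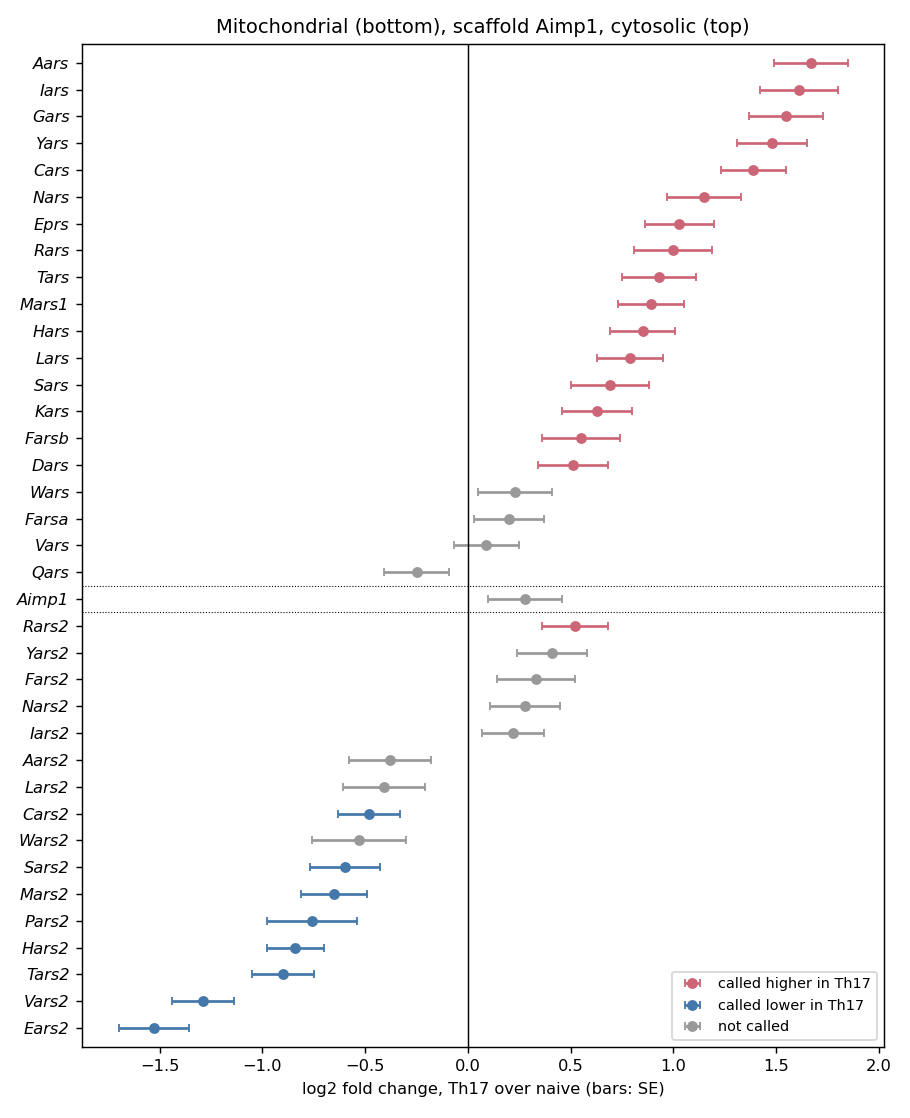
Log2 fold change of Th17 over naive for the 37 genes, with bars of 1 SE from the edgeR fit. Cytosolic enzymes are at the top, Aimp1 in the middle and mitochondrial enzymes at the bottom; 16 cytosolic genes and 1 mitochondrial gene were called higher, and 8 mitochondrial genes were called lower.

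The pair of genes for one amino acid can be compared within a library, where the scaling of the libraries cancels. Levels were set per kilobase of annotated exon for this, so the place of a ratio depends on the gene models but its change between groups does not. There were 17 pairs over 16 amino acids, since Eprs pairs with both Ears2 and Pars2, and both Farsa and Farsb pair with Fars2. The log2 ratio of cytosolic over mitochondrial gene was higher in both Th17 libraries than in both naive libraries in 15 of the 17 pairs and overlapped in the other 2. Of all tested genes taken singly, 44.1% lay above in both Th17 libraries and 40.8% below. The share among ratios of other genes was not worked out. The median change over the pairs was 1.38 in log2. With 2 libraries against 2, the exact permutation test of one ratio cannot give a two-sided p below 0.333, so no ratio was tested alone.

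The glutamate pair moved most, with Eprs over Ears2 at log2 ratios of 0.44 and 0.37 in naive and 3.12 and 2.79 in Th17 libraries, a change of 2.56. For alanine, Aars over Aars2 went from 0.23 and 0.53 to 2.41 and 2.43. The cysteine pair, near 1 to 1 in naive cells at log2 ratios of -0.17 and -0.07, reached 1.77 and 1.71. The threonine pair was similar, from -0.14 and -0.02 to 1.94 and 1.52. Leucine was the 1 amino acid whose mitochondrial gene had the higher level in every library, with Lars over Lars2 at -1.96 and -2.05 in naive and -0.44 and -1.16 in Th17 cells. The smallest change among pairs without overlap was that of arginine, 0.46, where both genes were called higher. Both phenylalanine pairs overlapped between groups, with changes of -0.13 for Farsa and 0.22 for Farsb over Fars2.

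In 7 of the 17 pairs the cytosolic gene was called higher and the mitochondrial gene lower, namely those of cysteine, glutamate, histidine, methionine, proline, serine and threonine. The reverse was found in 0 pairs. Without naive library 1 the opposite calls were left in 2 pairs, those of glutamate and histidine, and without naive library 2 in 3, with methionine beside them. With total reads as the only scaling they were 4, those of glutamate, histidine, threonine and valine. Over all tested genes 34.3% were called higher and 30.7% lower. Summed over genes, the cytosolic synthetases went from 466 and 514 to 956 and 784 CPM per kilobase, and the mitochondrial ones from 196 and 183 to 138 and 150 CPM per kilobase. The ratio of the sums was 2.38 and 2.81 in naive and 6.92 and 5.22 in Th17 libraries. Without Lars2, which alone gave 46.3 to 75.1 CPM per kilobase, it was 3.87 and 4.57 in naive and 10.4 and 9.02 in Th17 libraries.

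**Figure D3:**
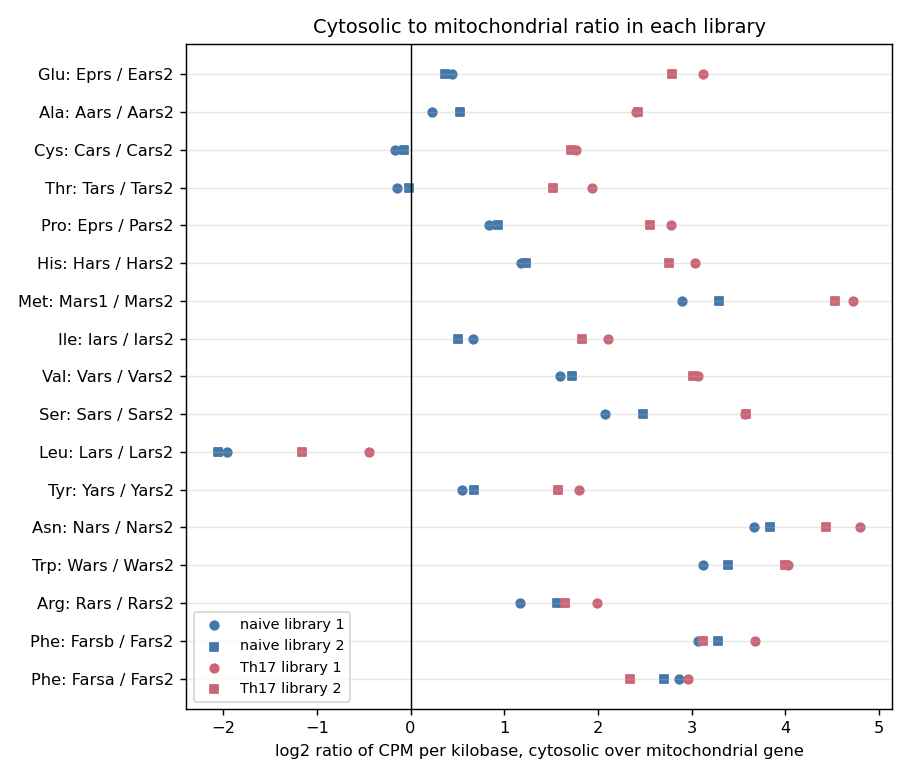
Log2 ratio of the cytosolic over the mitochondrial gene for each amino acid, from CPM per kilobase, in the 2 naive (blue) and 2 Th17 (red) libraries, ordered by the change between groups. Red points lie to the right of blue ones in 15 of 17 pairs, and the groups overlap in the 2 phenylalanine pairs at the bottom.

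In mammalian cells 8 of the cytosolic enzymes sit in the multi-synthetase complex, held together by 3 scaffold proteins without charging activity. Of those 8 genes 7 were called higher, with Qars the exception, at a median log2 fold change of 0.84. Outside the complex 9 of 12 were called higher, at a median of 0.89. Both counts stand beside 34.3% called higher among all tested genes, whose median was 0.06. Without naive library 1 the calls were 4 of 8 and 6 of 12. Aimp1, which also gives rise to the secreted cytokine EMAP II, had 57.9 and 72.8 CPM in naive and 88.2 and 70.2 CPM in Th17 cells, overlapped between groups and was not called, at a log2 of 0.28 (SE 0.18, edgeR adjusted p 0.21). The scaffold gene Aimp2 rose from 26.0 and 37.7 CPM to 70.3 and 57.4 CPM, a log2 of 1.01, and Eef1e1, the smallest scaffold, from 21.3 and 33.2 CPM to 79.0 and 64.0 CPM, a log2 of 1.40. The call of Aimp2 was lost without naive library 1. Whether Aimp1 differed from the other scaffolds was not tested.

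Synthetases fall into 2 structural classes, which bind ATP and tRNA in different ways. Of the cytosolic genes 6 of 9 of class I and 9 of 10 of class II were called higher, beside 34.3% of all tested genes, at medians of 0.89 and 0.77 in log2. Eprs holds a domain of each class and was left out of both counts. For mitochondrial genes the calls lower were 4 of 9 in class I and 4 of 7 in class II, beside 30.7% of all tested genes. Without naive library 1 they were 2 of 9 and 2 of 7, and the cytosolic calls higher were 5 of 9 and 4 of 10. The genes serving both compartments, Gars and Kars, are counted as cytosolic here, and both were called higher.

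The 12 cytosolic genes listed as known ATF4 targets were Aars, Cars, Eprs, Gars, Iars, Lars, Mars1, Nars, Sars, Tars, Wars and Yars. Of these 11 were called higher, Wars being the exception, at a median log2 fold change of 1.09. Of the 8 others 5 were called higher, at a median of 0.53, and of all tested genes 34.3%. Without naive library 1 the calls were 9 of 12 and 1 of 8, without naive library 2 they were 9 and 2, and without Th17 library 1 they were 10 and 2. The 5 largest cytosolic rises all belonged to the list. The difference between the 2 lists was not tested.

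Of the 9 tested genes of the amino acid response 8 were called higher, beside 34.3% of all tested genes. Atf4 itself went from 158 and 182 CPM in naive to 431 and 371 CPM in Th17 cells, a log2 of 1.24 (SE 0.17) with an edgeR adjusted p of 2.5e-04. Asns, the ATF4 target that makes asparagine, was barely read in naive cells at 0.424 and 0.422 CPM and reached 126 and 91.8 CPM. The serine synthesis genes Psat1 and Phgdh rose by 2.98 and 1.32 in log2, and the pseudokinase gene Trib3 by 2.35. Chac1, a glutathione-degrading enzyme gene, had no read in either naive library and averaged 8.82 CPM in the Th17 ones. That is at least 47.7-fold higher, with the naive level set to 3 reads per library. Eif2ak4, which encodes GCN2, rose by 1.07 and Ddit3 by 0.67, and the call of Ddit3 was lost without either naive library or without Th17 library 1. Ddit3 shares 68 bases of exon with Mars1 on the opposite strand. Gcn1, an activator of GCN2, had 244 and 146 CPM against 156 and 147 CPM and was not called, at a log2 of -0.36. Without naive library 2 its log2 fold change was -0.76, and without naive library 1 it was 0.01. Whether Gcn1 was called lower thus depended on the naive library left out.

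The promoter windows of the 37 genes were searched for the core of the element that ATF4 binds with C/EBP partners. Called higher by then were 11 of 12 cytosolic genes on the ATF4 list and 5 of 8 others. A role of ATF4 was not tested. The windows were RefSeq's (build GRCm38.p6), each with 250 bases before and 50 after an annotated start, and 28 of the 37 genes had one. The letters searched, on both strands, were TTGCATCA, after the values were known. They were found for 4 of 13 cytosolic genes with a window, Aars, Iars, Tars and Yars, and for 0 of 14 mitochondrial genes. Of all 32851 windows 0.895% held them, and of all 27025 genes with a window 1.03% did. Those 4 genes had log2 fold changes of 1.67, 1.61, 0.93 and 1.48. A looser form, TGATGNAA, which takes in the first, was also searched. It added Gars and no other gene, giving 5 of 13 cytosolic and 0 of 14 mitochondrial genes. It was found in 3.97% of all windows and for 4.51% of all genes with a window. The 9 genes without a window were Cars, Hars, Lars, Nars, Rars, Vars, Wars, Hars2 and Pars2.

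The matches of Iars, Tars and Yars are shown 5′ to 3′ on the strand of the gene, with 11 bases on either side and the match in capitals, because they let the sites be compared. For Tars (chr15:11399655-11399684, minus strand) the match begins 15 bases before the start. For Iars (chr13:49682126-49682155, plus strand) it begins at base 8 after the start and for Yars (chr4:129189895-129189924, plus strand) at base 4.
Iars: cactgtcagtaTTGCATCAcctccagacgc
Tars: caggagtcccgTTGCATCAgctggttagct
Yars: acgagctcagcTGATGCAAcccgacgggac

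In Iars and Tars the match reads in the same orientation, and in Yars it is the reverse complement. The E-box CACGTG is a palindrome bound by MYC among others. It occurred for Aars, Iars, Tars and Farsb among 13 cytosolic genes and for Ears2 among 14 mitochondrial genes. Of all windows 7.15% held it, and of all genes with a window 8.09% did. Aars, Iars and Tars held both motifs. The cAMP response element TGACGTCA was found in 0 of the 28 genes, in 1.79% of all windows and for 2.03% of all genes with a window. Such matches describe the sequence and do not show that a factor was bound.

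Further genes of tRNA charging, listed by role, went both ways. Of 23 tested genes 8 were called higher and 4 lower, beside the 34.3% and 30.7% of all tested genes, and without naive library 1 the calls were 3 and 3. Besides the 2 scaffolds, Xpot, the exporter of tRNA from the nucleus, rose from 63.0 and 67.1 CPM to 194 and 148 CPM, a log2 of 1.40 (SE 0.18) with an edgeR adjusted p of 1.5e-04. Dtd2, which removes misloaded amino acids from tRNA, rose by 1.47, and Trnt1, which adds the CCA end to tRNA, by 0.51. The mitochondrial elongation factor genes Tsfm and Tufm rose by 0.92 and 0.50. The call of Tufm was lost in 5 of 12 alternatives and that of Trnt1 in 3, in both cases also without either naive library or Th17 library 1. The call of Tsfm was lost without naive library 1.

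The 3 subunit genes of the mitochondrial glutamyl-tRNA amidotransferase, which turns the glutamate that Ears2 loads into glutamine, were not called. Gatb had 12.9 and 13.5 CPM in naive and 15.3 and 19.0 CPM in Th17 cells, Gatc 13.2 and 13.4 against 16.3 and 15.9 CPM, and Qrsl1 20.1 and 18.6 against 17.4 and 17.0 CPM. Eef1a1, the abundant factor that carries charged tRNA to the ribosome, was called lower, at 16000 and 24000 CPM in naive and 7310 and 6850 CPM in Th17 libraries, a log2 of -1.50 (SE 0.29). Eefsec, its counterpart for selenocysteine, fell by 0.71 in log2 and Elac1, of the tRNase Z family, by 0.67, where the call of Elac1 was lost without either naive library and with total reads as the only scaling. Aarsd1, an alanyl-tRNA editing gene, had at most 2.02 CPM, and its call lower was lost in 11 of 12 alternatives. Tarsl2, a second cytosolic threonyl enzyme, was not called at a log2 of 0.49 (SE 0.20, edgeR adjusted p 0.053).

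RNA editing was looked for in the same genes. The table of edited sites in naive and Th17 cells listed 869 sites and the table of wild-type and DDX5-deficient Th17 cells 355 sites. By gene name and by position within the annotated genes, 0 of them lay in the 37 genes. The tables list only sites that passed the submitters' confidence threshold, so editing below it was not detectable here, and the expression of these genes in DDX5-deficient cells was not analysed here.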

How the data were processed

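The members, the gene lists and the comparisons were chosen with earlier results of these data known. Per the submitters' processing notes the tools were STAR 2.6.1a, DESeq2 1.18.1 and featureCounts, with the mm10 build; the use of strand is not given in the sources used here, nor is the meaning of the word Malat1 in the column names. The deposited read counts, called original per the file headers, were the input. The deposited normalized signal, the log2 fold change with its standard error, the Wald score, the p-value and the adjusted p-value were made by the authors, and the deposited edited fraction came with SAILOR, per the labels.

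Counts were tested with edgeR 4.0.16 in R 4.3.3 (filterByExpr, TMM, robust quasi-likelihood, group alone), with DESeq2 1.42.0 among the alternatives. SE is the size of the log2 fold change over the square root of the F statistic. The fit was first tested on simulated counts. Counts by role and of pairs under the alternatives were added after seeing the data. The named genes rule gave values per library for the 5 largest called rises and falls in each compartment, for pairs called oppositely and for uncalled genes; other members were added. Exon lengths and overlaps are from GENCODE M21, which matched 16295 of 16308 genes. With blastn 2.17.0, Iars shared 1656 bases at 96.0% identity with the pseudogene Gm4849, the 1 match of at least 100 bases at 95% identity outside overlapping genes. Only annotated transcripts were searched, so reads shared with other sequences were not looked for. Replicates are separate samples per the labels, and p-values measure only the spread between them. At 3 reads the level was 0.104 to 0.227 CPM, which covers counting error only. Some items are not reported here.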

Additional observations from a re-analysis of the deposited data

How the results depend on the processing

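All 25 called members kept their direction in the 12 alternatives, and 13 of them, 9 cytosolic and 4 mitochondrial, kept their call in each. With total reads as the only scaling, the median log2 fold change was 1.17 for cytosolic and -0.21 for mitochondrial genes, with 5 mitochondrial genes called higher and 4 lower. Of the 12 uncalled members 10 gained a call in at least 1 alternative. Mitochondrial genes called higher numbered 2 with DESeq2 size factors and with upper quartile scaling, 3 with DESeq2 and 0 with no low-count filter. Leaving out 1 library in turn gave 2380 to 4847 genes called higher over all genes, 10 to 16 cytosolic genes higher, 0 to 1 mitochondrial genes higher and 4 to 10 lower; the lone library's spread is then taken from the other group. Without members whose exons overlap another gene of the table, an alternative added after seeing the data, 5 of 11 mitochondrial genes were lower. Signs of uncalled genes turned for Qars (0.06), Prorsd1 (0.04), Qrsl1 (0.13), Mtfmt (0.21) and Elac2 (0.07) with total reads and for Mtfmt (0.02) with upper quartile. Leaving out 1 library in turn, Gcn1 ranged from -0.76 to 0.01 (without naive library 1), and Farsa from -0.02 to 0.37, Vars from -0.03 to 0.17 and Wars from -0.01 to 0.40, with the negative values without Th17 library 1. The cause was not tested. The replicate block gave 16 cytosolic genes higher and 8 mitochondrial genes lower and changed no call of a member. With it the call of Aarsd1 was lost (edgeR adjusted p 0.091). Deviations of same-numbered libraries correlated at -0.081. With 2 libraries a group the deviations mirror each other, so this value cannot decide whether libraries were paired. The main fit did not take the numbers as pairs. Naive library 2 and Th17 library 2 also share a number in their names, which may or may not mark 1 animal. Only 2 libraries a group limit the precision.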
